A study of Mus musculus with 4 samples.

Results

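The G2 and mitosis genes described here are 34 protein-coding mouse genes that dividing cells use between the end of DNA replication and the separation of the daughter cells. They were chosen by symbol, and all 34 were among the 14432 genes of a single-cell count table. The table holds 27366 bone marrow-derived macrophages (BMDMs), primary macrophages grown from mouse bone marrow in recombinant M-CSF at 50 ng/mL. The marrow donors were 8 to 12 weeks old and were labelled either Trpv4-null or C57BL/6J wild type. Trpv4 encodes a calcium-permeable channel. The cells had either been given LPS, a bacterial lipopolysaccharide that activates macrophages, at 100 ng/mL for 24 h or been left untreated. There was 1 library for each of the 4 groups: Trpv4-null with LPS (6565 cells), wild type with LPS (8288 cells), Trpv4-null untreated (5485 cells) and wild type untreated (7028 cells). All 4 groups shared the M-CSF culture. The series' design text speaks of 3 mice per genotype and 12 samples, but no cell carries a mouse label in the annotation used here. No difference below therefore has a replicate check, and every interval covers counting error only.

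A cell enters mitosis when the kinase Cdk1, bound to a B-type cyclin, phosphorylates the proteins that condense chromosomes, build the spindle and load kinetochores. It leaves mitosis when the anaphase-promoting complex, a ubiquitin ligase, has the cyclins and securin destroyed, after which the midzone and the contractile ring split the cell. Transcripts of these genes are low in G1 and S phase and accumulate in G2, under the DREAM and MMB-FOXM1 complexes, which reach DNA at a promoter element called the cell cycle genes homology region (CHR), and under NF-Y, which binds CCAAT boxes. Genes of DNA replication are instead timed to the G1/S border through E2F sites. M-CSF is a mitogen for macrophages in culture, and LPS is known to arrest their proliferation.

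A UMI, or unique molecular identifier, is a tag that marks a captured mRNA molecule so that its copies are counted once. Levels are given as CPM, the UMIs of a gene per 1000000 UMIs of the library or of the cells named. Cells of the LPS libraries carried more UMIs: the median per cell was 16041 and 16674 in the null-labelled and wild-type-labelled libraries after LPS, against 7893 and 5660.5 in the untreated null-labelled and wild-type-labelled ones. Trpv4 itself had 9.62 and 8.6 CPM in the LPS and untreated libraries labelled Trpv4-null, against 2.07 and 5.83 CPM in the LPS and untreated libraries labelled wild type. It was not lower in the libraries labelled null. The sources used here do not say which part of the gene the allele lacks, and UMIs from outside a deleted part check nothing. The libraries are therefore called null-labelled and wild-type-labelled, and each direction between genotypes rests on that label. The authors had sorted the cells into 9 named clusters, of which Proliferating held 644 and 602 cells in the null-labelled and wild-type-labelled LPS libraries and 542 and 421 cells in the untreated null-labelled and wild-type-labelled ones. These cells had all 14 of 14 macrophage markers at 20 CPM or more in every library, while the 9 bone marrow progenitor markers, 7 of them in the table, summed to 0.57 to 6.64 CPM. The 11 neutrophil markers, 8 of them in the table, summed to 114 to 1193 CPM in these cells. Of the 2485 S100a9 UMIs in the Proliferating cells of the untreated wild-type-labelled library, 2482 came from 1 cell, and without cells of over 10 S100a9 UMIs the median LPS ratio inside the cluster, as defined below, was -1.75 null-labelled and -1.81 wild-type-labelled, against -1.75 null-labelled and -1.80 wild-type-labelled with them. A total of 74 barcodes occurred in more than 1 library.

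Most promoters of the members held the elements that time late cell cycle genes. RefSeq promoters (GRCm38.p6, 250 bases before to 50 after the annotated start) matched 29 of the 34 members, and the other 5, Smc4, Ccna2, Tpx2, Aurkb and Pimreg, are named only. The CHR letters TTTGAA or TTCGAA, on either strand, were found in 23 of 29 promoters (79.3%), against 17.1% of the promoters of 10688 genes of the count table. CCAAT on either strand was found in 24 of 29 (82.8%), against 43%, and both elements in 21 of 29 (72.4%), against 7.11%. The E2F letters TTTCCCGC, TTTCGCGC, TTTGCCGC or TTTGGCGC, on either strand, were found in 1 of 29 member promoters, that of Cdk1, against 4.44% of the promoters of counted genes. Of 33 matched promoters of S phase genes, the same E2F letters were in 36.4% and the CHR letters in 18.2%. The promoters of 6 members are printed, from 126 bases before to 24 after the start, because these members were among the lowest after LPS relative to untreated cells, inside or outside the Proliferating cluster and hold both elements near the start. They were chosen after these values were seen. Capitals mark the CHR letters and CCAAT, which read TTCAAA and ATTGG where they lie on the other strand.

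Cenpf: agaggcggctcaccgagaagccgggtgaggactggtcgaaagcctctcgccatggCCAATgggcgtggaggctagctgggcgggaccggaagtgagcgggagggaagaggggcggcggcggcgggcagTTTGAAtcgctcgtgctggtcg

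Cenpa: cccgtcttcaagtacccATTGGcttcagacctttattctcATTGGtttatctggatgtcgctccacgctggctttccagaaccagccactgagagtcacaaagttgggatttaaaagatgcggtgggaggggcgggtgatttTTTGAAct

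Ube2c: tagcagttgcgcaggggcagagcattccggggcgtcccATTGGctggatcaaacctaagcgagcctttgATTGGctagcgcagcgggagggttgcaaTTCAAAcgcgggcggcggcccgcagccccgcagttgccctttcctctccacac

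Kif23: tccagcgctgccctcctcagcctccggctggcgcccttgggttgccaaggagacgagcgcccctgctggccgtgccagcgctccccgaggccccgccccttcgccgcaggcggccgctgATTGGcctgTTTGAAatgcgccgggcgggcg

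Hmmr: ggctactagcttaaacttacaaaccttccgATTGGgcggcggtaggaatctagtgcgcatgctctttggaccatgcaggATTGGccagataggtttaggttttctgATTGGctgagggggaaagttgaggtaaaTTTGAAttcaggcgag

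Cdc20: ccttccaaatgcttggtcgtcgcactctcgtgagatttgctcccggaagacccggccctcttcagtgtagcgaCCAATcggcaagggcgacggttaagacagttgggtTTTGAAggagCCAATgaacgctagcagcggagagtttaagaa

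These windows lie at Cenpf chr1:189688063-189688212 (minus strand), Cenpa chr5:30666760-30666909 (plus strand), Ube2c chr2:164769803-164769952 (plus strand), Kif23 chr9:61946776-61946925 (minus strand), Hmmr chr11:40733414-40733563 (minus strand) and Cdc20 chr4:118437320-118437469 (minus strand). In all but that of Cdc20 the CHR letters lie downstream of every CCAAT in the window, and in that of Cdc20 a CCAAT lies on each side of them. A match to these letters is a description and not a shown binding site. Inside the Proliferating cluster, the median log2 ratio of LPS over untreated was close in members with and without both elements. For the 21 members with both it was -1.82 in the null-labelled and -1.95 in the wild-type-labelled libraries, and for the 8 members without both it was -1.77 and -1.94 in the null-labelled and wild-type-labelled libraries.

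LPS-treated macrophages held a smaller part of their transcripts as G2 and mitosis mRNA. Summed over the 34 members, the level in all cells was 621 CPM in the null-labelled and 479.8 CPM in the wild-type-labelled library after LPS, against 2004 and 1334 CPM in the untreated null-labelled and wild-type-labelled libraries. Both LPS libraries were lower than both untreated ones. The median share of mitochondrial UMIs per cell also moved with treatment, at 3.19% and 3.05% after LPS in the null-labelled and wild-type-labelled libraries, against 6.13% and 6.06% in the untreated null-labelled and wild-type-labelled ones, and its part in the result was not tested. A member was compared where it reached 20 CPM and 30 UMIs in the higher library. Most members compared over all cells reached 20 CPM only in the untreated library. The counts of lower members below therefore lean on this rule, which held alike for all genes. Ratios are on a log2 scale after 1 CPM was added to each level, and 2-fold is a size and not a test. In the null-labelled libraries 30 members were compared and 29 were lower after LPS, 26 of them at least 2-fold, where 21.3% of the 6340 genes compared were. With clusters given the same weight in each library, 15 of 20 null-labelled members compared were at least 2-fold lower (20.4% of genes were). In the wild-type-labelled libraries 16 of 17 were lower, 11 of them at least 2-fold, where 17.7% of 6332 genes were. In UMIs per cell, with the same minimum and pseudocount, 11 of 21 null-labelled and 4 of 13 wild-type-labelled members compared were at least 2-fold lower. Of all genes, 4.4% null-labelled and 1.68% wild-type-labelled were. With a minimum of 5 CPM, 22 of 33 wild-type-labelled members were (18.4% of genes). The median log2 ratio of the compared members was -1.91 null-labelled and -1.68 wild-type-labelled, beside -0.42 and -0.39 for all genes compared in the null-labelled and wild-type-labelled libraries. The exception was Tubb4b, a beta-tubulin that non-dividing cells also use, at 95.6 CPM null-labelled and 70.1 CPM wild-type-labelled after LPS, against 84.9 CPM null-labelled and 56.9 CPM wild-type-labelled untreated. Its log2 ratios of 0.17 null-labelled and 0.30 wild-type-labelled did not reach 2-fold, which 7.3% and 6.9% of genes did upwards in the null-labelled and wild-type-labelled libraries. Scaled by median-of-ratios size factors, 7.31% of all genes were at least 2-fold lower and 16.6% higher in the null-labelled libraries, and 6.39% lower and 14.1% higher in the wild-type-labelled ones. Of the 30 members compared in the null-labelled libraries, none turned round under that scaling. Of the 17 compared in the wild-type-labelled ones, Top2a did, and members not compared were not checked.

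These are shares of the captured mRNA, and in UMIs per cell the differences were smaller. The 34 members summed to 10.3 UMIs per cell after LPS against 17.2 untreated in the null-labelled libraries, and to 8.34 after LPS against 8.3 untreated in the wild-type-labelled ones. Without scaling, 29 of 34 members were lower after LPS in the null-labelled libraries but 18 of 34 in the wild-type-labelled ones. Their median log2 ratios were -0.99 null-labelled and -0.15 wild-type-labelled. All genes compared in UMIs per cell, with the minimum and pseudocount, had medians of 0.62 null-labelled and 1.15 wild-type-labelled. Whether the higher UMI count of LPS-treated cells is more RNA per cell or deeper sequencing cannot be told apart from these counts. Over all cells, fewer cells in G2 and mitosis and less mRNA per such cell cannot be told apart either.

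**Figure D1:**
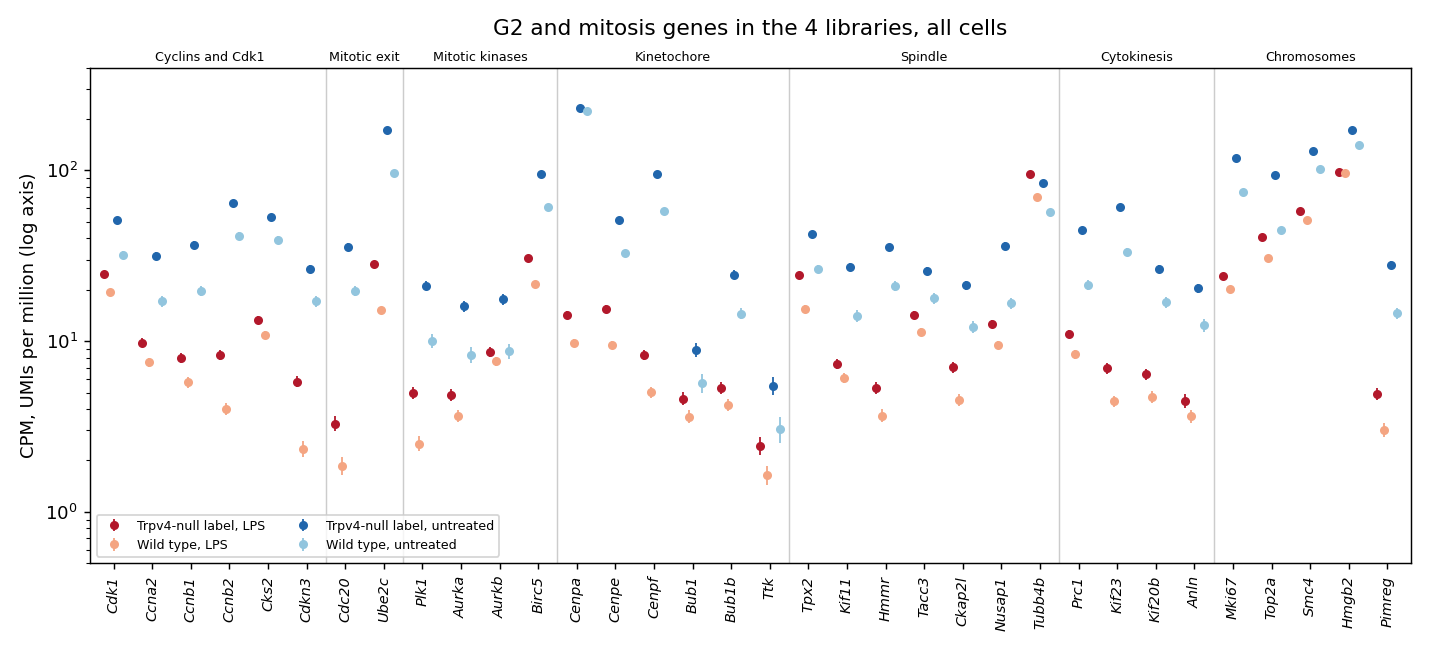
Level of each of the 34 members in all cells of the 4 libraries, in CPM on a log axis, grouped by role; points are values and bars exact Poisson 95% intervals (counting error only). For every member but Tubb4b both LPS points lie below the untreated points of the same genotype label.

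Inside the Proliferating cluster all 34 members reached the level for comparison, and all 34 were lower after LPS in the libraries of both labels, except that Aurkb turned round in the wild-type-labelled libraries under TMM and median-of-ratios scaling and with every cell weighted equally. Their summed level was 3611 and 3219 CPM after LPS in the null-labelled and wild-type-labelled libraries, against 11509 and 10871 CPM in the untreated null-labelled and wild-type-labelled ones. In the null-labelled libraries 29 of 34 were at least 2-fold lower (20.6% of 6664 genes were), with a median log2 ratio of -1.75. In the wild-type-labelled ones 27 of 34 were (18.7% of 6689 genes), with a median of -1.80. All genes compared there had medians of -0.40 in the libraries of each label. The authors made the cluster from the cells' own transcripts, so the high level of the members in it is no finding, and which cells it took in may differ between treatments. In UMIs per cell, 32 of the 34 were lower inside the cluster in the null-labelled libraries, Bub1 and Aurkb being higher. In the wild-type-labelled ones 23 were, and Top2a, Cdk1, Ccna2, Nusap1, Bub1, Aurkb, Tacc3, Ttk, Smc4, Hmgb2 and Tubb4b were higher. Proliferating cells held more UMIs in all after LPS, so these counts hold that difference too. The median per cell was 19062.5 null-labelled and 20447 wild-type-labelled after LPS, against 10553 null-labelled and 7128 wild-type-labelled untreated.

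**Figure D2:**
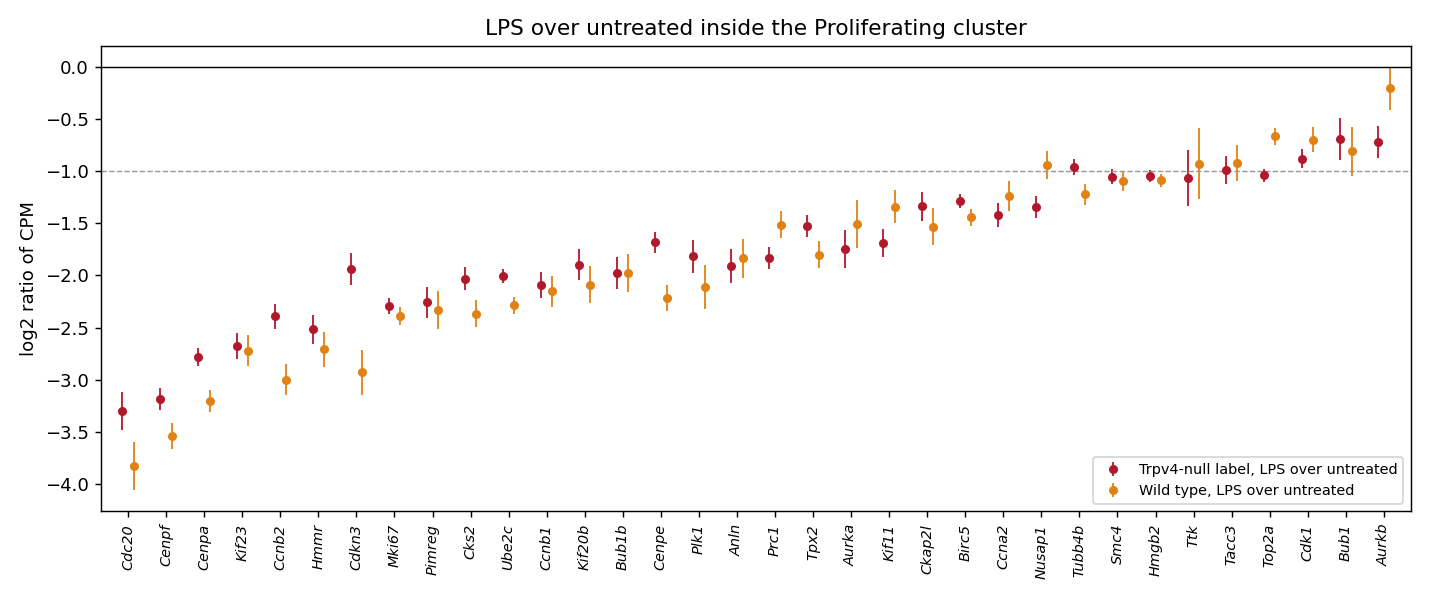
Log2 ratio of CPM, LPS over untreated, of each member inside the Proliferating cluster, without a pseudocount, for null-labelled and wild-type-labelled libraries; bars are exact conditional 95% intervals (counting error only) and the dashed line is 2-fold lower. Cdc20, Cenpf and Cenpa lie lowest and Aurkb, Bub1 and Cdk1 among the highest, and the order is much the same in the libraries of both labels.

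The members did not differ by one amount. Over the 34 members, the LPS log2 ratios inside the cluster had a Pearson correlation of 0.948 and a Spearman correlation of 0.945 between null-labelled and wild-type-labelled libraries, a description across genes that share the 4 libraries. By role, the pair of mitotic exit genes had the lowest median, -2.63 null-labelled and -3.01 wild-type-labelled. Cdc20, the activator of the anaphase-promoting complex, had 25.2 CPM in the null-labelled and 16.1 CPM in the wild-type-labelled library after LPS, against 248 CPM and 228 CPM in the untreated null-labelled and wild-type-labelled libraries. This was 9.85-fold lower (95% interval 8.71 to 11.2) in null-labelled and 14.2-fold lower (95% interval 12.1 to 16.7) in wild-type-labelled libraries. Ube2c, the ubiquitin-conjugating enzyme of that complex, had 228 CPM in the null-labelled and 169.6 CPM in the wild-type-labelled library after LPS, against 917 CPM and 828 CPM in the untreated null-labelled and wild-type-labelled libraries (log2 ratios -2.00 null-labelled and -2.28 wild-type-labelled). Both genes were lower after LPS in the libraries of both labels, each time 1 library against 1.

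Among the cyclin-dependent kinase genes, the kinase and its cyclins differed in size. Cdk1, the kinase that starts mitosis, had 162 CPM in the null-labelled and 152 CPM in the wild-type-labelled library after LPS, against 298 CPM and 247 CPM in the untreated null-labelled and wild-type-labelled libraries, which was 1.84-fold lower (95% interval 1.73 to 1.96) null-labelled and 1.62-fold lower (95% interval 1.49 to 1.76) wild-type-labelled. Ccnb2, a B-type cyclin that activates it, was 5.25-fold lower (95% interval 4.83 to 5.7) null-labelled and 8.01-fold lower (95% interval 7.23 to 8.89) wild-type-labelled, at 64.8 CPM null-labelled and 43.6 CPM wild-type-labelled after LPS, against 339.9 CPM null-labelled and 349 CPM wild-type-labelled untreated. Ccnb1, the other B-type cyclin, had 61.3 CPM null-labelled and 52 CPM wild-type-labelled after LPS, against 261 CPM null-labelled and 231 CPM wild-type-labelled untreated (log2 ratios -2.07 null-labelled and -2.13 wild-type-labelled). The cyclin A gene Ccna2, which acts from S phase into G2, had 84 CPM null-labelled and 85.9 CPM wild-type-labelled after LPS, against 225 CPM null-labelled and 203 CPM wild-type-labelled untreated (log2 ratios -1.41 null-labelled and -1.23 wild-type-labelled). Of the 3 cyclins, the S and G2 cyclin was the least lower and Ccnb2 the lowest in the libraries of each label. Cks2, a small subunit that binds the kinase, had 81.8 CPM in the null-labelled and 69.2 CPM in the wild-type-labelled library after LPS, against 334 CPM and 357 CPM in the untreated null-labelled and wild-type-labelled libraries (log2 ratios -2.02 null-labelled and -2.35 wild-type-labelled). Cdkn3, a phosphatase that acts on cyclin-dependent kinases, had 41.8 CPM null-labelled and 21.3 CPM wild-type-labelled after LPS, against 160.2 CPM null-labelled and 162 CPM wild-type-labelled untreated (log2 ratios -1.91 null-labelled and -2.87 wild-type-labelled). It was the member whose LPS ratio differed most between the labels.

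The mitotic kinase group held Aurkb, the member least lower in the wild-type-labelled libraries. Plk1, which acts in mitotic entry and spindle assembly, had 41.7 CPM in the null-labelled and 27.5 CPM in the wild-type-labelled library after LPS, against 147 CPM and 119 CPM in the untreated null-labelled and wild-type-labelled libraries (log2 ratios -1.79 null-labelled and -2.07 wild-type-labelled). Aurka, the spindle pole Aurora kinase, had 32.1 CPM null-labelled and 29.4 CPM wild-type-labelled after LPS, against 108 CPM null-labelled and 83.7 CPM wild-type-labelled untreated (log2 ratios -1.72 null-labelled and -1.48 wild-type-labelled). Aurkb, the Aurora kinase of the chromosomal passenger complex, had 64 CPM in the null-labelled and 66.5 CPM in the wild-type-labelled library after LPS, against 106 CPM and 76.8 CPM in the untreated null-labelled and wild-type-labelled libraries (log2 ratios -0.71 null-labelled and -0.20 wild-type-labelled). In the wild-type-labelled libraries Aurkb was 1.15-fold lower (95% interval 1.0 to 1.33), the interval reaching close to no difference. Birc5 (survivin), its partner in that complex, had 251 CPM in the null-labelled and 233 CPM in the wild-type-labelled library after LPS, against 613 CPM and 633 CPM in the untreated null-labelled and wild-type-labelled libraries (log2 ratios -1.28 null-labelled and -1.44 wild-type-labelled). Birc5 was more than 2-fold lower in the libraries of both labels, and Aurkb in neither.

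The kinetochore genes spanned nearly the whole range. Cenpf, a large outer kinetochore protein, had 70.9 CPM in the null-labelled and 56.5 CPM in the wild-type-labelled library after LPS, against 644 CPM and 658 CPM in the untreated null-labelled and wild-type-labelled libraries, which was 9.09-fold lower (95% interval 8.44 to 9.79) null-labelled and 11.6-fold lower (95% interval 10.7 to 12.7) wild-type-labelled. Cenpa, the histone H3 variant that marks centromeres, had 109 CPM null-labelled and 87.8 CPM wild-type-labelled after LPS, against 748 CPM null-labelled and 809.9 CPM wild-type-labelled untreated (log2 ratios -2.77 null-labelled and -3.19 wild-type-labelled). Cenpe, a kinesin that carries chromosomes along spindle microtubules, had 104 CPM null-labelled and 74.4 CPM wild-type-labelled after LPS, against 333 CPM null-labelled and 346 CPM wild-type-labelled untreated (log2 ratios -1.67 null-labelled and -2.20 wild-type-labelled). The spindle checkpoint genes lay on both sides of the 2-fold size. Bub1, a checkpoint kinase, had 37.2 CPM in the null-labelled and 37.5 CPM in the wild-type-labelled library after LPS, against 60.2 CPM and 65.8 CPM in the untreated null-labelled and wild-type-labelled libraries (log2 ratios -0.68 null-labelled and -0.79 wild-type-labelled), and Ttk, the kinase upstream of it, 18.2 CPM null-labelled and 17.2 CPM wild-type-labelled after LPS, against 38.1 CPM null-labelled and 32.9 CPM wild-type-labelled untreated (log2 ratios -1.03 null-labelled and -0.89 wild-type-labelled). Bub1b (BubR1), part of the complex that inhibits Cdc20, had 41.3 CPM null-labelled and 39.5 CPM wild-type-labelled after LPS, against 162 CPM null-labelled and 155 CPM wild-type-labelled untreated (log2 ratios -1.95 null-labelled and -1.95 wild-type-labelled), a ratio close to the median member. Ttk rests on few UMIs, 894 in all 27366 cells.

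Of the spindle genes, Hmmr was lowest. Hmmr, which binds microtubules and helps to build the spindle, had 43.9 CPM in the null-labelled and 38.3 CPM in the wild-type-labelled library after LPS, against 252 CPM and 251 CPM in the untreated null-labelled and wild-type-labelled libraries, 5.73-fold lower (95% interval 5.19 to 6.33) null-labelled and 6.54-fold lower (95% interval 5.84 to 7.34) wild-type-labelled. Tpx2, which activates Aurora A on the spindle, had 100.2 CPM null-labelled and 86.1 CPM wild-type-labelled after LPS, against 289 CPM null-labelled and 299.8 CPM wild-type-labelled untreated (log2 ratios -1.52 null-labelled and -1.79 wild-type-labelled). Kif11, the kinesin that pushes the poles apart, had 60.7 CPM null-labelled and 66.4 CPM wild-type-labelled after LPS, against 195 CPM null-labelled and 168 CPM wild-type-labelled untreated (log2 ratios -1.67 null-labelled and -1.33 wild-type-labelled). The microtubule-bundling gene Nusap1 and the spindle-associated genes Ckap2l and Tacc3 followed. Nusap1 had 104 CPM in the null-labelled and 105 CPM in the wild-type-labelled library after LPS, against 262 CPM and 201 CPM in the untreated null-labelled and wild-type-labelled libraries (log2 ratios -1.33 null-labelled and -0.94 wild-type-labelled), Ckap2l 58.7 CPM null-labelled and 47.7 CPM wild-type-labelled after LPS, against 148 CPM null-labelled and 138 CPM wild-type-labelled untreated (log2 ratios -1.32 null-labelled and -1.51 wild-type-labelled). Tacc3, which steadies kinetochore fibres, had 72 CPM null-labelled and 63.7 CPM wild-type-labelled after LPS, against 143 CPM null-labelled and 121 CPM wild-type-labelled untreated (log2 ratios -0.98 null-labelled and -0.91 wild-type-labelled). Tubb4b, the member that was not lower over all cells, was lower inside the cluster, at 235 CPM in the null-labelled and 169 CPM in the wild-type-labelled library after LPS, against 457 CPM and 394 CPM in the untreated null-labelled and wild-type-labelled libraries (log2 ratios -0.96 null-labelled and -1.22 wild-type-labelled). Reads of Tubb4b may be shared with other beta-tubulin genes, so its level is less certain.

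The cytokinesis genes were all more than 2-fold lower. Kif23, the kinesin of the centralspindlin complex, was lowest at 56.2 CPM in the null-labelled and 47.2 CPM in the wild-type-labelled library after LPS, against 359 CPM and 312 CPM in the untreated null-labelled and wild-type-labelled libraries, 6.39-fold lower (95% interval 5.87 to 6.97) null-labelled and 6.6-fold lower (95% interval 5.96 to 7.32) wild-type-labelled. Prc1, which bundles the midzone microtubules, had 91.1 CPM null-labelled and 89.6 CPM wild-type-labelled after LPS, against 325 CPM null-labelled and 256 CPM wild-type-labelled untreated (log2 ratios -1.82 null-labelled and -1.50 wild-type-labelled). The kinesin gene Kif20b had 46.8 CPM null-labelled and 39.6 CPM wild-type-labelled after LPS, against 174 CPM null-labelled and 168 CPM wild-type-labelled untreated (log2 ratios -1.87 null-labelled and -2.06 wild-type-labelled). Anln (anillin), a scaffold of the contractile ring, had 38 CPM in the null-labelled and 39.9 CPM in the wild-type-labelled library after LPS, against 143 CPM and 143 CPM in the untreated null-labelled and wild-type-labelled libraries (log2 ratios -1.88 null-labelled and -1.81 wild-type-labelled). Kif23 was the lowest of the 4 in the libraries of each label.

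Chromosome genes split into 2 kinds. Mki67, which coats mitotic chromosomes and is the usual proliferation marker, had 159.7 CPM in the null-labelled and 149 CPM in the wild-type-labelled library after LPS, against 782 CPM and 783 CPM in the untreated null-labelled and wild-type-labelled libraries (log2 ratios -2.29 null-labelled and -2.38 wild-type-labelled). Pimreg had 41.9 CPM null-labelled and 34.6 CPM wild-type-labelled after LPS, against 200.27 CPM null-labelled and 174 CPM wild-type-labelled untreated (log2 ratios -2.23 null-labelled and -2.30 wild-type-labelled). Both had log2 ratios below -2 in the libraries of each label. Top2a, the topoisomerase that untangles sister chromatids and is made from S phase on, had 327 CPM in the null-labelled and 325 CPM in the wild-type-labelled library after LPS, against 673 CPM and 516 CPM in the untreated null-labelled and wild-type-labelled libraries (log2 ratios -1.04 null-labelled and -0.67 wild-type-labelled). The condensin subunit gene Smc4 had 245 CPM null-labelled and 216 CPM wild-type-labelled after LPS, against 508 CPM null-labelled and 463 CPM wild-type-labelled untreated (log2 ratios -1.05 null-labelled and -1.10 wild-type-labelled). Hmgb2, a DNA-bending chromatin protein, had 413 CPM null-labelled and 423 CPM wild-type-labelled after LPS, against 855 CPM null-labelled and 899 CPM wild-type-labelled untreated (log2 ratios -1.05 null-labelled and -1.09 wild-type-labelled). Those 3 lay close to 2-fold in the null-labelled libraries. Reads of Hmgb2 may be shared with close relatives, and 5 members overlap a counted gene on the other strand (Ccna2 with Exosc9, Nusap1 with Oip5, Prc1 with Rccd1, Tacc3 with Tmem129 and Cdc20 with Elovl1). The use of strand in counting is not given in the sources used here.

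Inside the Proliferating cluster the other genes of the cycle separated by phase. Of 46 genes of the G1/S border and DNA replication, 42 were compared inside the cluster in the null-labelled libraries and all 42 were higher after LPS, 25 of them at least 2-fold (7.49% of genes were). In the wild-type-labelled libraries 41 of 41 were higher, 30 at least 2-fold (7.22% of genes). Only 30 of the 46 genes reached the level for comparison inside the cluster in either untreated library. The rest of those compared passed only through their LPS level, so these counts lean on that rule. Their summed level was 3334 and 3734 CPM after LPS in the null-labelled and wild-type-labelled libraries, against 1643 and 1525 CPM in the untreated null-labelled and wild-type-labelled ones. Ccne1, the cyclin that starts S phase, had 53.4 CPM in the null-labelled and 56.1 CPM in the wild-type-labelled library after LPS, against 1.91 CPM and 3.46 CPM in the untreated null-labelled and wild-type-labelled libraries. Its partner gene Ccne2 had 38.7 CPM null-labelled and 53.4 CPM wild-type-labelled after LPS, against 4.95 CPM null-labelled and 9.52 CPM wild-type-labelled untreated. The origin licensing gene Cdc6 had 23.2 CPM null-labelled and 27.2 CPM wild-type-labelled after LPS, against 5.27 CPM null-labelled and 3.17 CPM wild-type-labelled untreated, and the replication helicase gene Cdc45 39.1 CPM null-labelled and 39.5 CPM wild-type-labelled after LPS, against 13.9 CPM null-labelled and 6.06 CPM wild-type-labelled untreated. All 4 were higher after LPS in the libraries of each label, and these 4 and Hells passed the minimum only through that level. Hells, a chromatin remodeller, had 41.9 CPM null-labelled and 59.5 CPM wild-type-labelled after LPS, against 8.94 CPM null-labelled and 11 CPM wild-type-labelled untreated. Pcna, the sliding clamp of DNA polymerase, had 232 CPM in the null-labelled and 257 CPM in the wild-type-labelled library after LPS, against 88.4 CPM and 89.2 CPM in the untreated null-labelled and wild-type-labelled libraries. The helicase subunit gene Mcm6 had 143 CPM null-labelled and 180.2 CPM wild-type-labelled after LPS, against 56.5 CPM null-labelled and 59.4 CPM wild-type-labelled untreated. Rrm1, of the enzyme that makes deoxynucleotides, had 200.03 CPM null-labelled and 233 CPM wild-type-labelled after LPS, against 173 CPM null-labelled and 157 CPM wild-type-labelled untreated, a smaller difference. Outside the cluster the 46 genes summed to 440 CPM null-labelled and 435 CPM wild-type-labelled after LPS, against 434 and 447 CPM untreated. There 4 of 8 null-labelled and 3 of 8 wild-type-labelled genes compared were higher after LPS. Over all cells 8 of 13 null-labelled and 8 of 12 wild-type-labelled ones were, 2 at least 2-fold under each label (7.3% and 6.9% of genes).

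Of 79 further mitosis genes in the table, 71 of 79 were lower inside the cluster after LPS in the null-labelled libraries and 68 of 77 in the wild-type-labelled ones, 49 and 43 of them at least 2-fold in the null-labelled and wild-type-labelled libraries (20.6% and 18.7% of all genes compared were in the null-labelled and wild-type-labelled libraries). Their median log2 ratios were -1.17 null-labelled and -1.10 wild-type-labelled. Aspm, a spindle pole protein, had 20.7 CPM in the null-labelled and 20.2 CPM in the wild-type-labelled library after LPS, against 278 CPM and 283 CPM in the untreated null-labelled and wild-type-labelled libraries. The cytokinesis kinesin gene Kif20a had 22.4 CPM null-labelled and 18.2 CPM wild-type-labelled after LPS, against 164 CPM null-labelled and 177 CPM wild-type-labelled untreated, and Ckap2 25.6 CPM null-labelled and 24.6 CPM wild-type-labelled after LPS, against 186 CPM null-labelled and 164 CPM wild-type-labelled untreated. Psrc1 had 4.23 CPM null-labelled and 3.78 CPM wild-type-labelled after LPS, against 41.8 CPM null-labelled and 27.7 CPM wild-type-labelled untreated. A pair of other tubulin genes differed less than Tubb4b: Tuba1b had 1283 CPM in the null-labelled and 1274 CPM in the wild-type-labelled library after LPS, against 1188 CPM and 1101 CPM in the untreated null-labelled and wild-type-labelled libraries, and Tubb5 1556 CPM null-labelled and 1500.2 CPM wild-type-labelled after LPS, against 1802 CPM null-labelled and 1677 CPM wild-type-labelled untreated. Stmn1, which destabilises microtubules, had 677 CPM null-labelled and 760.1 CPM wild-type-labelled after LPS, against 1191 CPM null-labelled and 1307 CPM wild-type-labelled untreated.

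Counted cell by cell at equal depth, fewer members were found together in a cell after LPS. Each cell was thinned to 3000 UMIs, and cells with fewer (93 and 122 in the null-labelled and wild-type-labelled LPS libraries, 209 and 666 in the untreated null-labelled and wild-type-labelled ones) were left out. At least 10 of the 34 members were then found in 3.52% (228 of 6472 cells, 95% interval 3.09 to 4.0%) of the null-labelled and 2.27% (185 of 8166 cells, 95% interval 1.95 to 2.61%) of the wild-type-labelled library after LPS. Untreated, the share was 9.04% (477 of 5276 cells, 95% interval 8.28 to 9.85%) null-labelled and 4.81% (306 of 6362 cells, 95% interval 4.3 to 5.36%) wild-type-labelled. Without thinning the shares were 8.23% and 5.57% after LPS in the null-labelled and wild-type-labelled libraries, against 11.4% and 5.83% in the untreated null-labelled and wild-type-labelled ones. For at least 5 members, unthinned, they were 18.2% null-labelled and 16.4% wild-type-labelled after LPS, against 23.3% and 13.1% untreated. For at least 15 they were 6.64% and 4.57% after LPS, against 9.7% and 4.51% untreated. The wild-type-labelled shares were thus not lower after LPS at these 2 cuts. The number of 10 is a cut in a range, and 165, 150, 93 and 73 cells had 8 to 11 members in the null-labelled LPS, wild-type-labelled LPS, null-labelled untreated and wild-type-labelled untreated libraries. Of the thinned cells with 10 or more members, all belonged to the Proliferating cluster after LPS, and in the untreated libraries all but 9 null-labelled and 4 wild-type-labelled cells did. Without thinning, 28 null-labelled and 9 wild-type-labelled cells with 10 or more members lay outside the cluster after LPS, against 92 null-labelled and 34 wild-type-labelled cells untreated.

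At 3000 UMIs a Proliferating cell held a median of 7 members in the null-labelled and 7 in the wild-type-labelled library after LPS, against 18 and 16 in the untreated null-labelled and wild-type-labelled libraries. Without thinning the medians were 22 and 20 after LPS in the null-labelled and wild-type-labelled libraries, against 28.5 and 22 in the untreated null-labelled and wild-type-labelled ones. At 3000 UMIs, cells with at least 10 members and fewer than 10 of the 46 S phase genes made up 23.2% and 15.3% of Proliferating cells after LPS in the null-labelled and wild-type-labelled libraries, against 83.1% and 72.6% in the untreated null-labelled and wild-type-labelled ones. The reverse kind, at least 10 S phase genes and fewer than 10 members, made up 26.5% and 30.8% after LPS in the null-labelled and wild-type-labelled libraries, against 0.562% and 1.52% in the untreated null-labelled and wild-type-labelled ones. Cells with fewer than 10 of each made up 37.5% null-labelled and 37.8% wild-type-labelled after LPS, against 11.8% and 21.8% untreated. Those with at least 10 of each made up 12.8% null-labelled and 16.1% wild-type-labelled after LPS, against 4.49% and 4.06% untreated. These are counts of detected genes, not phase calls, and no doublets were removed here.

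**Figure D3:**
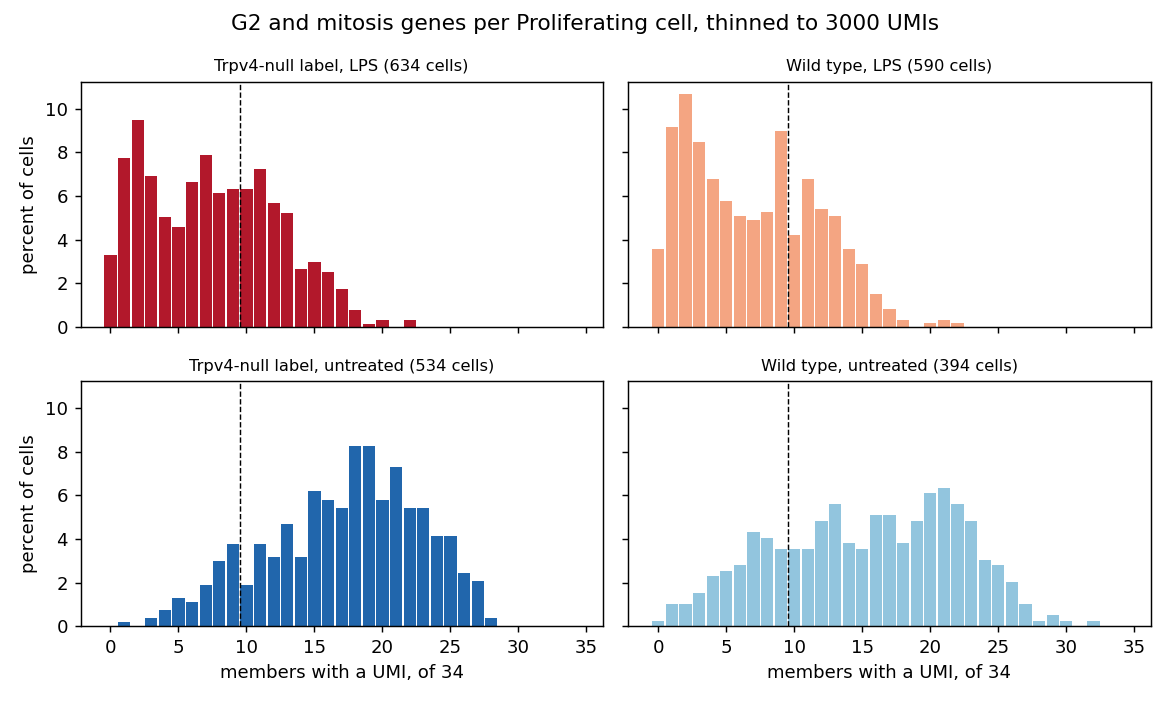
Number of the 34 members with a UMI in each Proliferating cell thinned to 3000 UMIs, as percent of the cells of each library; the dashed line separates cells with 10 or more members. The LPS libraries have their tallest bar at 2 members, rise again at 7 (null-labelled) and 9 (wild-type-labelled) and reach 22. The untreated libraries are centred at 18 (null-labelled) and 16 (wild-type-labelled).

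Mki67 and Cenpf were found in fewer of the Top2a-positive cells after LPS. Among Proliferating cells with a Top2a UMI at 3000 UMIs, Mki67 was found in 44.5% and 39.5% after LPS in the null-labelled and wild-type-labelled libraries, against 90.3% and 90.8% in the untreated null-labelled and wild-type-labelled ones. Cenpf was found in 21.8% and 22.9% of such cells after LPS in the null-labelled and wild-type-labelled libraries, against 77.8% and 80.5% in the untreated null-labelled and wild-type-labelled ones. In cells without a Top2a UMI, Cenpf was found in 8.12%, 7.75%, 59% and 57.9% of the null-labelled LPS, wild-type-labelled LPS, null-labelled untreated and wild-type-labelled untreated cells. Top2a itself was found in 51.4% and 51.9% of Proliferating cells after LPS in the null-labelled and wild-type-labelled libraries and in 61.6% and 47% of them in the untreated null-labelled and wild-type-labelled libraries. That difference between treatments was smaller than those of Mki67 and Cenpf among Top2a-positive cells.

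Outside the Proliferating cluster most members were scarce, with a few exceptions that differed between treatments. The cluster held a median of 86.8% and 83.4% of a member's UMIs after LPS in the null-labelled and wild-type-labelled libraries, and 89.1% and 84.5% in the untreated null-labelled and wild-type-labelled ones. The median member's level outside was 1.93% and 1.87% of its level inside after LPS in the null-labelled and wild-type-labelled libraries, against 1.89% and 1.58% in the untreated null-labelled and wild-type-labelled ones. All 4 libraries are macrophage cultures with no cluster of a cell type that is known to lack these genes, so the level that free RNA gives was not measured. Of the members, 6 were compared outside in the null-labelled libraries, 4 of them at least 2-fold lower after LPS (21.2% of genes were) and 1 at least 2-fold higher (7.47% were). In the wild-type-labelled libraries 5 were compared, 2 at least 2-fold lower (17.8%) and 1 higher (7.05%). Cenpa and Ube2c in the libraries of both labels, and Ccnb2 in the null-labelled ones, passed the minimum there only through their untreated level.

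**Figure D4:**
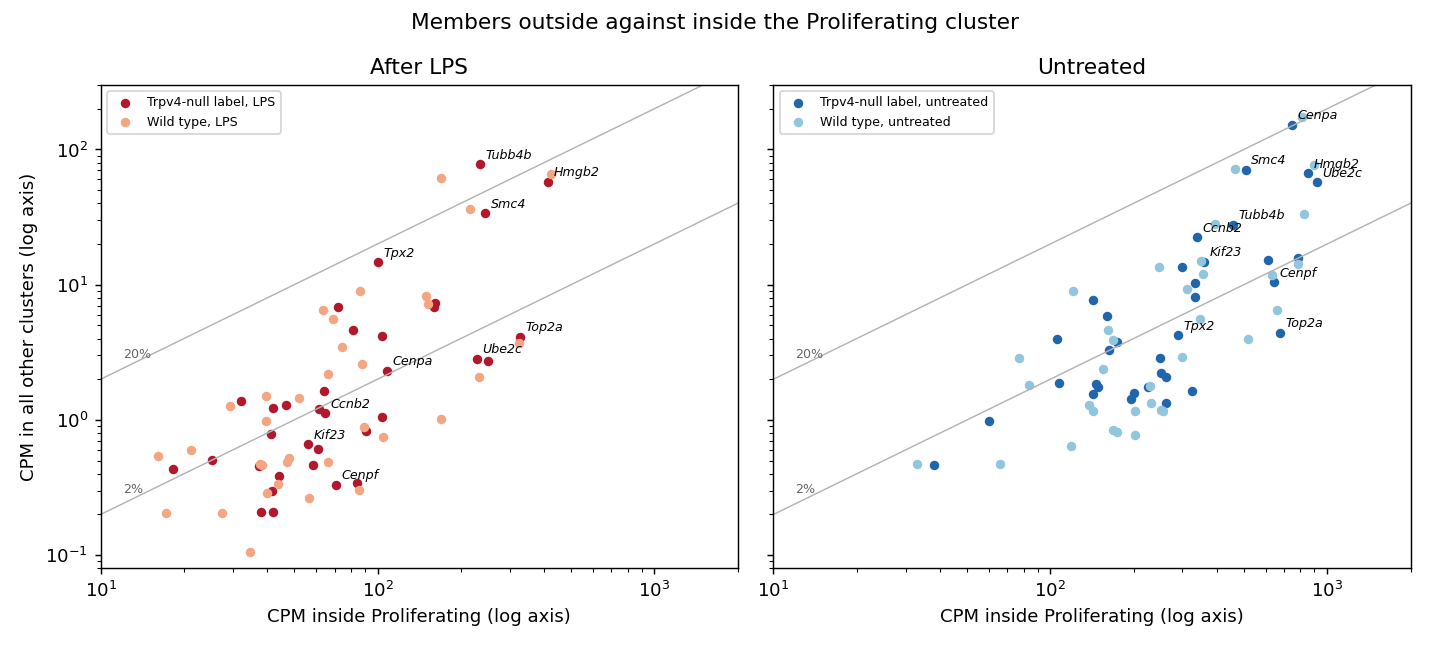
Level of each member in all other clusters against its level in the Proliferating cluster, both in CPM on log axes, after LPS (left) and untreated (right); grey lines mark 20% and 2% of the inside level, and the named points are those of the null-labelled libraries. Cenpa reaches the 20% line in untreated libraries and Tubb4b lies above it after LPS.

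Cenpa stood apart outside the cluster in untreated cells. It had 2.31 CPM in the null-labelled and 2.61 CPM in the wild-type-labelled library after LPS, against 152 CPM and 173 CPM in the untreated null-labelled and wild-type-labelled libraries, 66-fold lower (95% interval 57.8 to 75.8) null-labelled and 66.2-fold lower (95% interval 59.4 to 74) wild-type-labelled. In untreated libraries its level ran from 112 to 174 CPM (null-labelled) and from 131 to 190.2 CPM (wild-type-labelled) over the 7 other clusters, High_Btg1 with 3 to 36 cells per library left out. After LPS it ran from 1.53 to 3.54 CPM (null-labelled) and from 2.24 to 3.86 CPM (wild-type-labelled) over the same 7. The ranges over these 7 clusters did not overlap between treatments, with 1 library on each side. At 3000 UMIs, 0.548% and 0.766% of cells outside the cluster had a Cenpa UMI after LPS in the null-labelled and wild-type-labelled libraries, against 34.4% and 38.7% in the untreated null-labelled and wild-type-labelled ones. The shares without thinning were 3.46%, 4.16%, 59.9% and 55.9% for null-labelled LPS, wild-type-labelled LPS, null-labelled untreated and wild-type-labelled untreated cells. The level outside was 20.3% (null-labelled) and 21.3% (wild-type-labelled) of that inside in untreated libraries, where the median member had the shares under 2% given above.

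Several other members also had lower levels after LPS outside the cluster. Ube2c had 2.83 CPM in the null-labelled and 1.02 CPM in the wild-type-labelled library after LPS, against 57.4 CPM and 33.4 CPM in the untreated null-labelled and wild-type-labelled libraries outside the cluster, 20.3-fold lower (95% interval 17.9 to 23.1) null-labelled and 32.6-fold lower (95% interval 27.3 to 39.2) wild-type-labelled. Ccnb2 had 1.12 CPM null-labelled and 0.334 CPM wild-type-labelled after LPS, against 22.3 CPM null-labelled and 14.9 CPM wild-type-labelled untreated. It reached the level for comparison in the null-labelled libraries and not in the wild-type-labelled ones. Kif23, which reached it in neither, had 0.662 CPM null-labelled and 0.485 CPM wild-type-labelled after LPS, against 14.8 CPM null-labelled and 9.26 CPM wild-type-labelled untreated. Smc4 had 33.7 CPM in the null-labelled and 36.1 CPM in the wild-type-labelled library after LPS, against 70.9 CPM and 71.2 CPM in the untreated null-labelled and wild-type-labelled libraries (log2 ratios -1.05 null-labelled and -0.96 wild-type-labelled). Under TMM and median-of-ratios scaling its null-labelled log2 ratio was -0.48 and -0.46, short of 2-fold, and in UMIs per cell its wild-type-labelled one turned round to 0.50. Hmgb2 had 57.9 CPM null-labelled and 66 CPM wild-type-labelled after LPS, against 66.6 CPM null-labelled and 76.5 CPM wild-type-labelled untreated (log2 ratios -0.20 null-labelled and -0.21 wild-type-labelled), and its small difference turned round under both alternative scalings. Top2a, by contrast, hardly differed in CPM outside the cluster, at 4.13 CPM null-labelled and 3.7 CPM wild-type-labelled after LPS, against 4.42 CPM null-labelled and 3.97 CPM wild-type-labelled untreated. All 4 of these Top2a levels lay below the level for comparison.

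Outside the cluster a pair of spindle genes had higher levels after LPS. Tubb4b had 78 CPM in the null-labelled and 61 CPM in the wild-type-labelled library after LPS, against 27.7 CPM and 27.9 CPM in the untreated null-labelled and wild-type-labelled libraries, 2.82-fold higher (95% interval 2.64 to 3.0) null-labelled and 2.19-fold higher (95% interval 2.05 to 2.33) wild-type-labelled. It was higher in each of the 7 clusters, with LPS levels of 68.1 to 107 CPM (null-labelled) and 53.8 to 73.9 CPM (wild-type-labelled), against 19.9 to 37.7 CPM (null-labelled) and 23.1 to 35.5 CPM (wild-type-labelled) untreated. After LPS the Proliferating cluster therefore held only 27.7% and 20.4% of Tubb4b UMIs in the null-labelled and wild-type-labelled libraries, against 71.7% and 54.9% in the untreated null-labelled and wild-type-labelled ones. Tpx2 had 14.6 CPM in the null-labelled and 9.0 CPM in the wild-type-labelled library after LPS, against 4.25 CPM and 2.93 CPM in the untreated null-labelled and wild-type-labelled libraries, below the level for comparison. After LPS its highest level lay in the cluster Ifit1bl1+_Cmpk2+, at 44.7 CPM (null-labelled) and 30.5 CPM (wild-type-labelled), against 7.05 CPM (null-labelled) and 9.66 CPM (wild-type-labelled) in that cluster untreated. The median of the 7 clusters was 9.81 CPM (null-labelled) and 6.05 CPM (wild-type-labelled) after LPS. The Proliferating cluster held 46.6% and 46.9% of Tpx2 UMIs after LPS in the null-labelled and wild-type-labelled libraries, against 91.3% and 89.8% in the untreated null-labelled and wild-type-labelled ones.

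**Figure D5:**
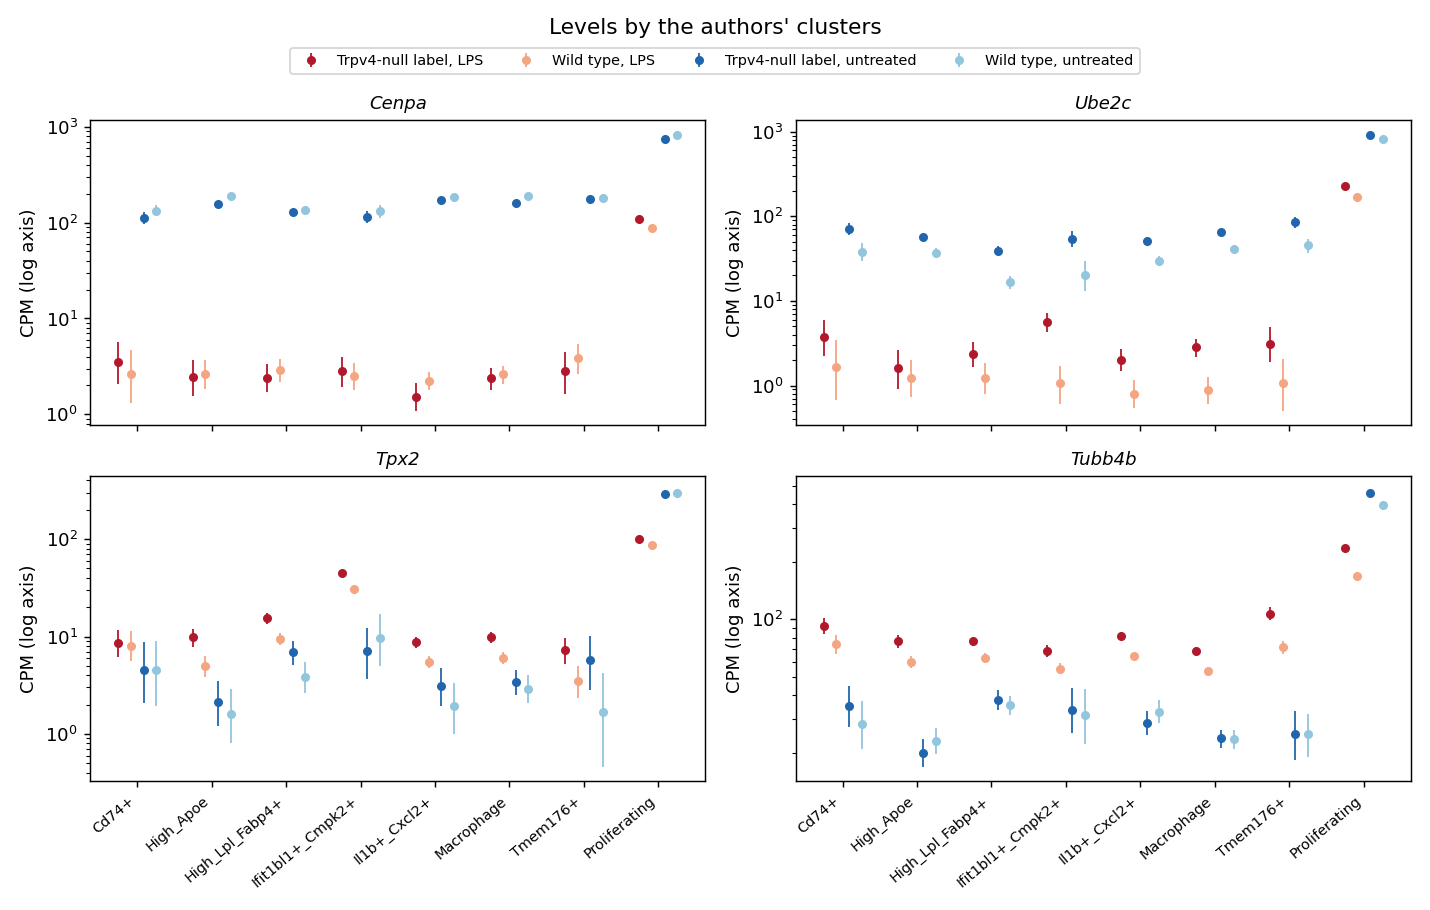
Levels of Cenpa, Ube2c, Tpx2 and Tubb4b in each of the authors' clusters, in CPM on log axes that differ between panels, for the 4 libraries; bars are exact Poisson 95% intervals (counting error only), and the cluster High_Btg1, with 3 to 36 cells per library, is left out. Cenpa and Ube2c are lower after LPS in every cluster shown and Tubb4b higher in every cluster but Proliferating.

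Between genotypes, the null-labelled libraries held more of these transcripts over all cells. Untreated, all 30 members compared were higher in the null-labelled than in the wild-type-labelled library, with a median log2 ratio of 0.69 beside -0.023 for all 6156 genes compared, and 4 were at least 2-fold higher (0.146% of genes were). They were Nusap1, Top2a, Prc1 and Plk1. With clusters given the same weight in each library 20 members reached the level for comparison and none of them was 2-fold higher (0.114% of genes were). The 4 named members then had log2 ratios of 0.38 (Nusap1), 0.37 (Top2a), 0.35 (Prc1) and 0.39 (Plk1). Top2a had 93.6 CPM null-labelled against 44.6 CPM wild-type-labelled, and Nusap1 had 36.1 CPM null-labelled against 16.7 CPM wild-type-labelled. Plk1 had 21.1 CPM null-labelled against 9.99 CPM wild-type-labelled, and Prc1 44.8 CPM null-labelled against 21.3 CPM wild-type-labelled. Nusap1, Plk1 and other members under 20 CPM in the wild-type-labelled library were compared only through their null-labelled level. The count of 30 therefore holds members that passed only where they were higher. Cenpa, with 232 CPM null-labelled against 223 CPM wild-type-labelled, was the member that differed least. With the clusters so weighted, Cenpa, Cks2 and Hmgb2 turned round, and Cenpa did so too with cells thinned or weighted equally. After LPS, all 9 members compared were higher in the null-labelled library, none of them 2-fold (0.134% of genes passed that size upwards and 0.0573% downwards), with a median of 0.38. Ube2c, with the largest ratio of them, had 28.2 CPM null-labelled against 15.3 CPM wild-type-labelled. It reached 20 CPM only in the null-labelled library, as did Cdk1 and Tpx2. Hmgb2 turned round after LPS with clusters given the same weight, with cells thinned or weighted equally and in UMIs per cell, and Mki67 with clusters given the same weight.

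Inside the cluster the ratios between genotypes were smaller. Untreated, 23 members were higher and 11 lower in the null-labelled library, with a median log2 ratio of 0.13 and a range of -0.13 to 0.46, and none reached 2-fold, which 0.2% of genes did in each direction. In UMIs per cell all 34 were higher in the untreated null-labelled library, with a median log2 ratio of 0.62. Untreated Proliferating cells held a median of 10553 UMIs null-labelled against 7128 wild-type-labelled, so these ratios hold that difference in depth too. After LPS 26 of 33 were higher, with a median of 0.19, and none reached 2-fold (0.303% of genes passed it upwards and 0.089% downwards). The largest ratios were those of Aurkb untreated, at 106 CPM null-labelled against 76.8 CPM wild-type-labelled, and Cdkn3 after LPS, at 41.8 CPM null-labelled against 21.3 CPM wild-type-labelled. Outside the cluster the 6 members compared untreated had a median of -0.0078 and none reached 2-fold (0.181% of genes did upwards and 0.165% downwards). Of them 4 were lower and 2 higher in the null-labelled library, from -0.20 to 0.77. The 2 higher were Ube2c (0.77) and Ccnb2 (0.56), and Ccnb2 passed the minimum only through its null-labelled level. The 3 compared there after LPS had a median of -0.094, and none reached 2-fold (0.116% of genes did upwards and 0.0578% downwards). With the clusters given the same weight in each library, the medians over all cells came to 0.094 untreated and 0.13 after LPS, against 0.69 untreated and 0.38 after LPS without that weighting. The null-labelled libraries held 644 of 6565 cells in the Proliferating cluster after LPS and 542 of 5485 untreated, and the wild-type-labelled ones 602 of 8288 after LPS and 421 of 7028 untreated. The part of these cell numbers in the differences over all cells was not tested beyond that weighting. With 1 library per group, a difference between mice, cultures or captures cannot be told apart from one between genotypes.

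Among the other cell cycle genes, those that differed most between genotypes inside the cluster did so by less than 2-fold. Untreated, Fam83d, Psrc1 and Gtse1 led the other mitosis genes. Fam83d, which brings a kinase to the spindle, had 44.2 CPM null-labelled against 28.9 CPM wild-type-labelled, Psrc1 41.8 CPM null-labelled against 27.7 CPM wild-type-labelled and Gtse1 27.9 CPM null-labelled against 18.8 CPM wild-type-labelled. Of the S phase genes, Mcm10, a replication initiation factor, had 32.4 CPM null-labelled against 21.1 CPM wild-type-labelled, the origin licensing gene Cdt1 44 CPM null-labelled against 29.7 CPM wild-type-labelled and the thymidylate synthase gene Tyms 30.2 CPM null-labelled against 20.5 CPM wild-type-labelled. After LPS, Wee1, the kinase that holds Cdk1 inactive, was lower, at 16.8 CPM null-labelled against 21.3 CPM wild-type-labelled. Shcbp1 had 32.9 CPM null-labelled against 24.9 CPM wild-type-labelled, and the centrosome kinase gene Nek2 23.7 CPM null-labelled against 19 CPM wild-type-labelled. The 3 S phase genes that differed most after LPS were all lower in the null-labelled library: Hells had 41.9 CPM null-labelled against 59.5 CPM wild-type-labelled, Ccne2 38.7 CPM null-labelled against 53.4 CPM wild-type-labelled and Dut, which clears dUTP, 79.2 CPM null-labelled against 107 CPM wild-type-labelled.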

How the data were processed

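The authors deposited raw UMI counts per gene and cell, with an annotation that names each cell's library and cluster and gives the fraction of its UMIs that are mitochondrial, which the authors derived from the same counts. The submitters' processing notes list Cell Ranger 3.1.0, Seurat 4, R 4.2 and genome build mm10, with no role or order. The labels' protocols describe droplet capture with 10x Chromium. As deposited, cells held 1003 to 39987 UMIs and under 10% mitochondrial UMIs, and genes were found in 6 or more cells. No doublets were removed here, and the sources used here do not give how the authors treated them.

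UMIs were summed over all cells of a library, over the Proliferating cells and over the rest, and divided by the total (CPM). Library totals ran from 43731003 to 144090985 UMIs. A gene was compared from 20 CPM and 30 UMIs in the higher library, on log2 of the level with 1 CPM added. Intervals are 95%, exact Poisson for levels, exact conditional for ratios and Clopper-Pearson for shares, and cover counting error only. No test was run, because each group is 1 library. The scripts were tested on simulated data. Every member is accounted for. Other cell cycle genes were named as the 3 with the highest CPM and the 3 with the largest ratio of each comparison in their list. Members, lists and printed promoters were chosen with earlier results of these data known. Positions are from GENCODE M21 (GRCm38). Alternatives changed the scaling (TMM from edgeR 4.0.16, median of ratios), the pseudocount, the minimum level, the weight of cells and clusters, the thinning and the promoter window. Scripts ran in R 4.3.3 and in Python 3.11.15 with scipy 1.17.1, numpy 2.4.6, matplotlib 3.10.9 and pandas 2.3.3.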

Additional observations from a re-analysis of the deposited data

Results flagged for a closer look

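Inside the Proliferating cluster Cenpa, the centromeric histone H3 variant, lay on opposite sides of equality between the genotype labels in the 2 treatments. The ratio of null-labelled over wild-type-labelled was 1.24 after LPS (95% interval 1.14 to 1.34) and 0.924 untreated (0.881 to 0.968). It stood at 109 CPM null-labelled and 87.8 CPM wild-type-labelled after LPS, and at 748 CPM null-labelled and 809.9 CPM wild-type-labelled untreated. In UMIs per cell Cenpa was higher in the null-labelled library in both treatments, at 2.07 null-labelled against 1.78 wild-type-labelled after LPS and 8.65 null-labelled against 6.67 wild-type-labelled untreated. Both intervals cover counting error only, and the difference between the 2 treatments was not tested.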

How the results depend on the processing

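Pairs of values below are null-labelled and then wild-type-labelled. Values in UMIs per cell are brought to the CPM scale by the mean depth per cell of the 4 libraries, and keep the minimum level and the pseudocount. Over all cells the median log2 ratio of LPS over untreated, reported as -1.91 and -1.68, was -1.37 and -1.19 with TMM factors, -1.35 and -1.18 with median-of-ratios size factors, -1.62 and -1.42 with cells weighted equally, -1.67 and -1.79 with clusters weighted as in the 4 libraries together, -1.58 and -1.54 with cells thinned to 3000 UMIs, and -1.01 and -0.0157 in UMIs per cell. It was -2.02 null-labelled with a pseudocount of 0.1 CPM and -1.53 wild-type-labelled from 5 CPM upwards. The TMM and median-of-ratios scalings put the median of all genes, -0.42 and -0.39 as reported, at 0.22 and 0.18 (TMM) and 0.25 and 0.19 (median of ratios). The count of members at least 2-fold lower, reported as 26 and 11, was 15 null-labelled with clusters weighted (20.4% of genes were). It was 22 wild-type-labelled from 5 CPM, where more members enter (18.4% of genes). In UMIs per cell it was 11 null-labelled and 4 wild-type-labelled (4.4% and 1.68% of genes), and 17 and 8 of all 34 members with no minimum and no pseudocount. The share of all genes with neither was not taken. Inside the cluster the medians were -1.27 and -1.33 (TMM), -1.25 and -1.34 (median of ratios) and -1.04 and -0.51 (UMIs per cell). Outside it, where few members were compared, they were -2.26 and -0.96 as reported, -0.48 and -0.45 (TMM), -0.46 and -0.44 (median of ratios) and -0.083 and 0.88 (UMIs per cell), and null-labelled -2.64 with 0.1 CPM and -1.07 from 5 CPM. Members at least 2-fold lower as reported that turned round did so only in UMIs per cell and in the wild-type-labelled libraries: Prc1 over all cells (0.12) and, inside the cluster, Ccna2 (0.058), Smc4 (0.20), Hmgb2 (0.21) and Tubb4b (0.076). Between genotypes untreated, the all-cell median was 0.094 with clusters weighted and 1.10 in UMIs per cell. With clusters weighted, 0 members were at least 2-fold higher in place of 4 (0.114% of genes were). With no minimum and no pseudocount, 29 of all 34 members were at least 2-fold higher in UMIs per cell. The share of all genes on that measure was not taken, so the count says nothing particular to the members. Untreated null-labelled cells held more UMIs in all, with a median of 7893 against 5660.5 wild-type-labelled, so values in UMIs per cell hold that difference too. The median was 0.62 inside in UMIs per cell, and outside 0.15 from 5 CPM and 0.33 in UMIs per cell. After LPS it was 0.46 over all cells with median-of-ratios factors and 0.13 with clusters weighted. Cdkn3, which enters from 5 CPM, had a log2 ratio of 1.02 there. Outside the cluster the median after LPS was -0.018 (TMM), -0.0092 (median of ratios), -0.045 (5 CPM) and -0.16 (UMIs per cell). The median share of member UMIs inside the cluster, thinned, was 80.4% in the wild-type-labelled LPS library and 85.9% and 78.2% in the untreated null-labelled and wild-type-labelled ones. The share of cells with many members, null-labelled before wild-type-labelled, was 6.69% and 4.48% after LPS and 12.4% and 7.36% untreated for 5 members, 0.865% and 0.453% after LPS and 7.2% and 3.43% untreated for 15, 8.23% and 5.57% after LPS and 11.4% and 5.83% untreated without thinning and 1.65% and 0.981% after LPS and 7.58% and 3.86% untreated thinned to 2000 UMIs. In the 100 bases before the start, 0 member promoters held the E2F letters. Causes were not tested, UMIs per cell and the S100a9 cells were added after the data were seen. Over all cells Ttk, Bub1, Aurkb and Aurka lay under the minimum of 20 CPM and were not compared between treatments. No paired analysis was possible because each group is 1 library and no cell carries a mouse label.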
